A study of Danio rerio with 17 samples.

Results

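Reporter-positive and reporter-negative cells of zebrafish larvae carrying Tg(acta2:mcherry) and (foxc1b:egfp) were compared at 4 days post fertilization. The libraries were chosen by their titles, which give 2 positive and 3 negative libraries, 5 of the 17 in the series. All 5 came from the same double-reporter line, and the cells had been dissociated and sorted by fluorescence. The labels name the positive population mural cells and the negative population non-mural cells. They do not say which colours were gated, and they give every sample, negative ones included, the same tissue entry of vascular smooth muscle. The series also holds cells sorted from Tg(acta2:egfp) larvae, 3 positive and 3 negative libraries at 4 days, which serve here for a single comparison. The other 6 libraries, from a kdrl line at 5 days, were not used in any comparison. Of 30220 genes in the table, 22116 had a value of at least 10 in 2 or more of the 5 libraries and were tested.

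Mural cells wrap the endothelium of blood vessels and comprise vascular smooth muscle cells and pericytes. Acta2, smooth muscle alpha actin, is the usual marker of the contractile smooth muscle state, in which serum response factor and its cofactor myocardin drive genes for actin, myosin and their regulators. Foxc1b is a forkhead transcription factor of head mesenchyme, which is derived in part from neural crest and contributes mural cells to head vessels. Acta2 is not restricted to vessels, since visceral smooth muscle and some striated muscle also use it.

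Values are read counts that the authors scaled between libraries. They hold no correction for gene length, so they are not comparable between genes. Between libraries the values of a gene are comparable only as far as that scaling holds. The 5 libraries held 21709413 to 33526582 reads, with 23590 to 27679 genes detected. Negative 2 stood apart from the other negative libraries. Across genes its log2 values correlated with negative 1 and negative 3 at Pearson's r = 0.717 and 0.721, against r = 0.946 between those libraries and 0.853 between the positive libraries. Positive 1 correlated with negative 1 and negative 3 at r = 0.848 and 0.8, and positive 2 at 0.749 and 0.743. Positive 1 was thus about as close to negative 1 as to positive 2. Epidermal genes took 7.57% of the reads of negative 2 (0.600% in negative 1 and 0.935% in negative 3), liver, gut and pancreas genes 5.48% (0.383% and 0.578%), stress genes 13.7% (6.30% and 3.61%) and neuronal genes 0.00973% (0.751% and 0.641%). The keratin gene krt4 had a value of 1349388 in negative 2, against 4094 in negative 1 and 10488 in negative 3. The scaling also gave 1 read a value of 1.63 in negative 2. This value was 0.774 and 0.647 in negatives 1 and 3, and 0.891 and 1.11 in the positive libraries. Negative 2 held the most reads, so an equal share of reads gives a higher value there. An equal share also gives a higher value in the positive libraries than in negatives 1 and 3, so leaving out negative 2 does not remove this. Mitochondrial ribosomal RNA genes took 4.66% of the reads of negative 2, within the 3.54% to 7.18% of the others. Their mean log2(value + 1) was nonetheless 18.7 there, against 16.4 to 17.1. Call counts over all genes and list medians are therefore given with and without negative 2, and the genes described at length with their value in every library.

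Both reporter genes had higher values in both positive libraries than in any negative one. The values of acta2 were 45.7, 137 and 75.7 in negative libraries 1 to 3, and 37792 and 44413 in positive libraries 1 and 2. The mean of the positive libraries was 478-fold that of the negative ones, and the log2 fold change of 9.02 ± 0.63 (SE) passed limma's test at an adjusted p of 0.0272. The values of foxc1b were 266, 415 and 215 in the negative libraries and 744 and 1977 in the positive ones. The groups did not overlap for foxc1b, and the means differed 4.56-fold, but its log2 fold change of 2.07 ± 0.66 had an adjusted p of 0.300, or 2.34 ± 0.57 with an adjusted p of 0.0750 without negative 2. The authors' deposited DESeq2 values, which rest on these same libraries, gave foxc1b a log2 fold change of 1.57 (adjusted p = 0.0285).

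In all 5 libraries limma called 6 genes higher in the positive cells (0.0271% of those tested) and 0 lower (0%), with 2532 genes at an unadjusted p under 0.05; edgeR's quasi-likelihood test on the recovered reads called 0, with 2723 unadjusted. Beside acta2, the 6 were tagln, cnn1b, LOC100535278, tnnt2e and myl13. Tagln, the actin-binding protein transgelin, stood at 11.6, 11.4 and 8.41 in the negative libraries and at 4372 and 4464 in the positive ones, and the log2 fold change was 8.60 ± 0.66 (adjusted p = 0.0272). Cnn1b, a calponin that binds actin in smooth muscle, stood at 53.4, 53.7 and 39.5 against 5248 and 11121 (7.27 ± 0.61, adjusted p = 0.0323). In both genes the negative libraries, negative 2 included, lay close together and far below either positive library. The sarcomeric genes tnnt2e, a troponin T, and myl13, a myosin light chain, had log2 fold changes of 6.60 ± 0.58 (adjusted p = 0.0376) and 6.57 ± 0.60 (adjusted p = 0.0420). LOC100535278, for which no role is given, had 48.0, 47.2 and 47.2 in the negative libraries against 10829 and 5887, a log2 fold change of 7.36 ± 0.57 (adjusted p = 0.0272). Leaving out positive 1 or positive 2 took the calls to 0, leaving out negative 1 gave 12 higher and 15 lower, and leaving out negative 3 gave 11 higher and 7 lower.

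**Figure D1:**
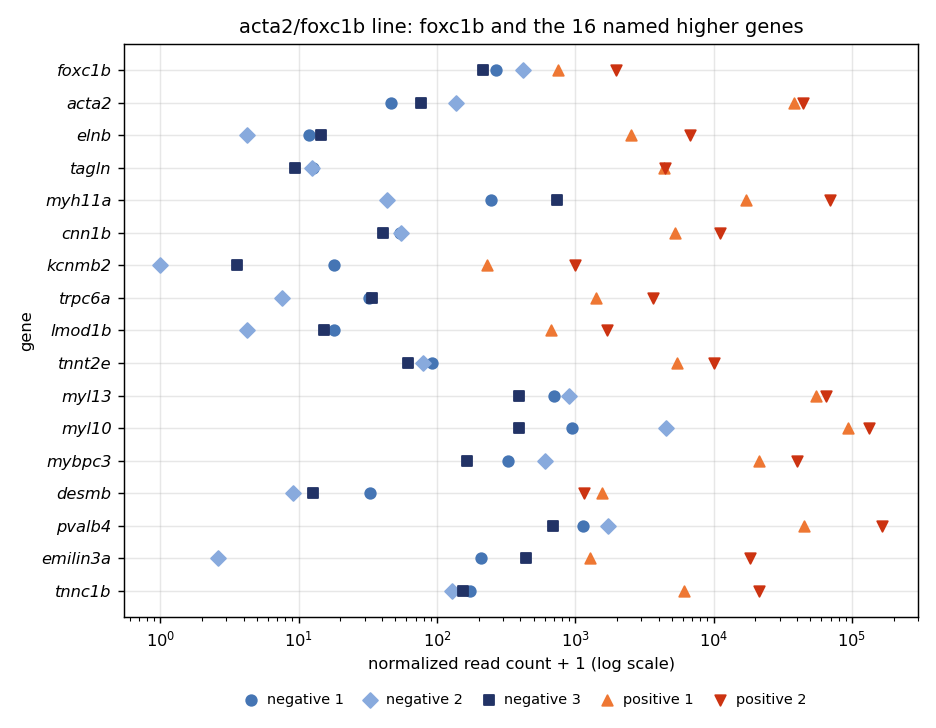
Normalized read count plus 1 on a log axis for foxc1b and 16 genes, those furthest up by log2 fold change once clone and locus names, means under 100 and overlapping groups were left out, with 1 point for each of the 3 negative (blue) and 2 positive (orange and red) libraries. In every gene shown both positive libraries lie to the right of all 3 negative ones, and the gap is narrowest for foxc1b, at 415 against 744 before the 1 was added.

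Without negative 2, limma called 360 genes higher (1.63%) and 471 lower (2.13%) among the same 22116 genes, including the 6 above. In all 5 libraries 3270 genes were higher and 3283 lower without any overlap between the groups, 14.8% each. Of the calls without negative 2, 319 of the 360 higher genes and 386 of the 471 lower genes had an adjusted p under 0.05 in the same direction in the authors' deposited table, which called 5.47% of the tested genes higher and 6.76% lower. The authors' values come from these same libraries, so the overlap is no independent check. Their deposited mean of each gene covers all 11 libraries of both acta2 lines, negative 2 included. Genes without an adjusted p there, such as ela2l, count as not called. Leaving out a further library left 1 sample in its group, so that the spread came from the other group alone and the lone sample was assumed to vary like it. On that basis leaving out negative 1 as well took the calls to 0 in both directions and leaving out negative 3 to 1 higher and 0 lower, whereas leaving out positive 1 gave 3170 higher and 4642 lower and leaving out positive 2 gave 1400 and 2353. In the following, "called" refers to limma without negative 2, and fold changes of single genes and adjusted p-values are from that fit unless stated. In the fit of all 5 libraries the smooth muscle contractile list held 3 of the 6 calls, with the reporter gene acta2 among them. The cardiac and outflow tract list held 2 and the other lists 0, and no gene named below apart from the 6 passed. Because the libraries are bulk RNA, fewer cells of a type and less RNA of a gene per cell cannot be told apart.

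The contractile machinery of smooth muscle was higher in the positive cells. Of the 45 tested genes of this list, 26 were called higher and 0 lower, and over all 5 libraries 36 were higher and 0 lower without overlap. The list's median log2 fold change was 3.34 in the 5 libraries and 3.18 without negative 2, against -0.11 and -0.08 over all genes tested. All 8 of the defining smooth muscle markers lay higher without overlap, and their summed values were 1041 to 1524 in the negative libraries and 81542 and 180072 in the positive ones. Acta2 is 1 of the 8 and gave 37792 and 44413 of the positive sums. It is also among the 26 called, and as a reporter gene of this line it checks the sort only. Myh11a, the smooth muscle myosin heavy chain, had 246, 42.3 and 739 in the negative libraries and 17169 and 68995 in the positive ones. The positive libraries lay well above, although they differed from each other as the negative ones did, and its log2 fold change was 6.33 ± 0.80 (adjusted p = 0.0177), or 7.43 ± 1.22 (adjusted p = 0.0924) in the 5 libraries. Myl9a, a regulatory light chain of that myosin, had 377, 428 and 437 against 13381 and 46063, a log2 fold change of 5.93 ± 0.62 (adjusted p = 0.0133). The actin filament nucleator lmod1b had 17.0, 3.25 and 14.2 against 665 and 1685 (adjusted p = 0.0139). The myosin light chain kinase genes of this list were called, mylkb with a log2 fold change of 6.46 and mylka with 4.21, as were the intermediate filament gene desmb (6.03), the tropomyosins tpm1 (3.92) and tpm2 (5.29), and the actin crosslinkers actn1 (3.61) and flna (3.60). The genes vcla and cav1, for vinculin and caveolin, had log2 fold changes of 3.42 and 3.18 without negative 2, and 2.07 and 1.81 with it, where the groups overlapped. Negative 2 had values of 8762 and 1023, above those of the positive libraries, 4667 and 6904 for vcla and 665 and 430 for cav1.

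Among 34 regulators of smooth muscle, 4 were called higher and 0 lower, and 26 were higher and 1 lower without overlap in the 5 libraries. The median log2 fold change of the list was 1.54, and 1.37 without negative 2. Myocd, which encodes myocardin, had 27.9, 1.63 and 42.1 in the negative libraries and 1240 and 936 in the positive ones. The positive libraries were high and close together, and the log2 fold change was 4.94 ± 0.53 (adjusted p = 0.0134). Its partner serum response factor was not called, and srfa had 457, 568 and 342 against 824 and 1369, a log2 fold change of 1.43 with an adjusted p of 0.146.

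The other called regulators were transcription factors of mesenchyme. Foxf1, a forkhead factor of visceral and head mesenchyme, had 1593, 533 and 1167 in the negative libraries and 25323 and 35571 in the positive ones, and its log2 fold change was 4.46 ± 0.44 (adjusted p = 0.0132). Foxf2a, a related factor needed in brain pericytes and smooth muscle, had 82.8, 101 and 113 against 1329 and 1868 (4.01 ± 0.47, adjusted p = 0.0166), and tcf21, a basic helix-loop-helix factor of mesenchymal progenitors, had 55.7, 48.8 and 62.1 against 1092 and 818 (3.98 ± 0.49, adjusted p = 0.0176). In none of these did the groups come near each other. In the wider list of 71 head mesenchyme and neural crest factors, foxl1 was added to these 3 to give 4 called higher and 0 lower, while 37 were higher and 1 lower without overlap and the median was 1.26, or 1.04 without negative 2. Hand2 had 1289, 215 and 1233 against 6540 and 31620, and foxc1a, the paralog of the reporter gene, 362, 35.8 and 380 against 1238 and 3828. Both were separated between groups without being called, at adjusted p of 0.0538 and 0.0674.

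Of 39 genes for ion channels and calcium handling, 8 were called higher and 0 lower, 19 were higher and 2 lower without overlap, and the median was 1.68, or 1.504 without negative 2. Trpc6a, a cation channel of the contractile response, had 31.0, 6.51 and 33.0 in the negative libraries and 1398 and 3631 in the positive ones (6.10 ± 0.59, adjusted p = 0.0127). Kcnmb2, a regulatory subunit of the large-conductance potassium channel that is outside the list but among the genes with the largest fold changes, had 17.0, 0 and 2.59 against 228 and 999 (5.90 ± 1.08, adjusted p = 0.0415). Both channel genes were low in every negative library. The calls also held gucy1a3, a subunit of soluble guanylate cyclase (4.67), prkg1b, a cyclic GMP-dependent kinase (4.58), and pde5ab, which degrades cyclic GMP (3.45). Their relatives in the list were not called, at 3.15 for gucy1b3 (adjusted p = 0.0547), 1.77 for prkg1a (adjusted p = 0.192) and -3.64 for pde5aa (adjusted p = 0.0977). The endothelin receptor gene ednraa had a log2 fold change of 2.37 and abcc9, a subunit of the ATP-sensitive potassium channel, of 2.79. The 8 also held itpr1a, for a calcium release channel, and casq2.

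Genes used to mark pericytes and mural cells in general gave 9 called higher and 1 lower among 38 tested, or 5 and 1 by edgeR without negative 2, and the median was 1.85, or 1.42 without negative 2. Rasl12, a small GTPase-like gene, had 31.0, 26.02 and 27.8 in the negative libraries and 1146 and 3654 in the positive ones (6.08 ± 0.65, adjusted p = 0.0138). Pdgfrb, the receptor that recruits mural cells, had 44.1, 3.25 and 33.6 against 910 and 202. It was higher in both positive libraries, but more so in positive 1, and its log2 fold change of 3.44 ± 0.81 had an adjusted p of 0.0688. Notch3, a receptor of mural cells, had 1384, 192 and 1090 against 4457 and 4562 (1.88 ± 0.39, adjusted p = 0.0538), and rgs5a, a regulator of G-protein signaling, 1250, 294 and 1095 against 7140 and 7608 (2.65 ± 0.39, adjusted p = 0.0232). Of the 5 defining pericyte markers, 3 lay higher without overlap, and kcnj8, a channel subunit of brain pericytes, was at 0 in positive 2 and at 21.4 in positive 1. The other marker, ndufa4l2a, had 27.9, 4.88 and 14.9 in the negative libraries against 68.6 and 4.45. For this gene positive 2 lay below every negative library. The member called lower, plp1b, encodes a myelin proteolipid protein and fell by 4.58 on the log2 scale.

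Elastic fiber and basement membrane genes gave 10 called higher and 0 lower of 50 tested, or 6 and 0 by edgeR without negative 2, with 38 higher and 1 lower without overlap and a median of 2.07, or 1.49 without negative 2. Elnb, an elastin gene, had 10.8, 3.25 and 13.6 in the negative libraries and 2531 and 6753 in the positive ones, and its log2 fold change was 8.30 ± 0.62 (adjusted p = 0.0072). Fbln5, which organizes elastic fibers, had 631, 351 and 549 against 13741 and 87966 (5.88 ± 0.83, adjusted p = 0.0216), and loxa, a lysyl oxidase that crosslinks elastin and collagen, 351, 103 and 188 against 3415 and 22765 (5.10 ± 0.87, adjusted p = 0.0345). In both genes positive 2 was several times positive 1, and both positive libraries exceeded every negative one. The same order between the positive libraries held for emilin3a, an elastin-associated glycoprotein gene, at 207, 1.63 and 441 against 1279 and 18335, which was not called (4.00 ± 1.16, adjusted p = 0.114, and 6.28 ± 2.22, adjusted p = 0.348, in the 5 libraries). Fibrillin fbn1 (2.91), elna (2.79), the laminin gene lamb1b (2.43) and the type IV collagen gene col4a2 (2.24) were also called.

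Among 57 other collagens and proteoglycans, 9 were called higher and 0 lower, but edgeR without negative 2 called 2, and the median was 1.60 in the 5 libraries and 1.15 without negative 2. Col8a2, a short-chain collagen gene, had 262, 40.7 and 250 in the negative libraries and 2474 and 6268 in the positive ones (3.94 ± 0.53, adjusted p = 0.0198). Fibronectin fn1a had 7149, 7053 and 4616 against 39342 and 92689 (3.39 ± 0.59, adjusted p = 0.0373). Acana, for the cartilage proteoglycan aggrecan, had 795, 71.6 and 1288 against 7360 and 55591, and was not called (4.32 ± 0.91, adjusted p = 0.0547). The 4 defining cartilage markers were higher in both positive libraries, with sums of 30212 to 40024 in the negative libraries and 62617 and 195905 in the positive ones. Of these sums col2a1a alone gave 29881 to 37036 in the negative libraries and 52201 and 135576 in the positive ones. The part of the cartilage markers in the matrix results was not tested. The fibrillar collagen gene col1a1a overlapped between groups, with 84762, 149772 and 75461 against 605259 and 104187.

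Signaling genes gave fewer calls. Of 71 TGF-beta and BMP genes, 5 were called higher and 0 lower, while 47 were higher and 1 lower without overlap and the median was 1.39, or 1.04 without negative 2. The ligand gene tgfb2 had 164, 35.8 and 125 in the negative libraries and 1139 and 3677 in the positive ones (3.83 ± 0.63, adjusted p = 0.0306), and the ligands tgfb3 (2.60) and bmp2b (2.43), the latent complex gene ltbp3 (3.13) and the decoy receptor bambia (3.05) completed the calls. Of 41 Notch genes, only the ligand jag1b was called, with 268, 512 and 236 against 2156 and 2392 (3.17 ± 0.40, adjusted p = 0.0177), and the list median was -0.36, or -0.72 without negative 2. The Hedgehog list of 26 gave 3 higher, foxf1, foxl1 and scube3, and 1 lower, nkx2.2a, a target in the neural tube, with a median of 1.27, or 0.76 without negative 2. Scube3 lay at the threshold in limma (adjusted p = 0.0497), and edgeR without negative 2 called 2 genes of the list higher and 1 lower. The transcriptional target gli1 had 1147, 296 and 893 against 2481 and 2381 (1.26, adjusted p = 0.134). The Wnt list of 69 gave sfrp1a, a secreted inhibitor, as its only call, which edgeR without negative 2 did not make, and its median was 0.85, or 0.82 without negative 2. The list of 52 FGF and retinoic acid genes gave fgf10a higher and fgf13b lower (median 0.49, or 0.29 without negative 2). With 1 higher call each, the Notch, Wnt and FGF lists had shares near the 1.63% of all genes. The 25 PDGF and VEGF genes gave none in either direction by limma or by edgeR without negative 2 (median 0.99, or 0.64 without negative 2).

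Striated muscle genes were higher in the positive cells as well. Of 84 tested skeletal muscle genes, 39 were called higher and 1 lower, 60 were higher and 2 lower without overlap, and the median log2 fold change was 2.46, or 2.63 without negative 2. Ckmb, a muscle creatine kinase gene, had 3634, 11470 and 4902 in the negative libraries and 96734 and 171338 in the positive ones (4.93 ± 0.54, adjusted p = 0.0139). Acta1a, a skeletal alpha actin gene, had 657, 1036 and 620 against 19885 and 54387 (5.69 ± 0.56, adjusted p = 0.0131). Pvalb4, a calcium-binding parvalbumin of muscle, had 1134, 1732 and 694 against 45137 and 165688 (6.61 ± 0.69, adjusted p = 0.0133). In each, both positive libraries exceeded negative 2, which was the highest negative library. The slow-muscle and cardiac type troponin C gene tnnc1b had 173, 127 and 154 against 6080 and 21316 (6.12 ± 0.63, adjusted p = 0.0133). The light chain gene myl10 and mybpc3, for a myosin-binding protein, both outside the lists, were among those with the largest fold changes. Myl10 had 941, 4547 and 389 against 92829 and 133080, and mybpc3 324, 603 and 164 against 21365 and 40150. The member called lower was myog, the differentiation factor myogenin, with 758, 340 and 903 against 149 and 98.9 (-2.76 ± 0.48, adjusted p = 0.0353).

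Skeletal muscle markers thus moved with the smooth muscle result. The 5 defining skeletal muscle markers had sums of 6664 to 19631 in the negative libraries and 88458 and 179820 in the positive ones, with 4 of the 5 higher without overlap and none at 0. Ckma alone gave 3545 to 11130 of the negative sums and 60596 and 138021 of the positive ones. The part of the skeletal muscle markers in the smooth muscle result was not tested. The cardiac and outflow tract list had 7 of 47 genes called higher and 0 lower, with a median of 2.54, or 2.12 without negative 2, led by tnnt2e and myl13 and including the sodium-calcium exchanger slc8a1a (4.78) and the calcium store protein casq2 (4.53). Of its 5 defining markers 4 were higher without overlap, and the sums were 216 to 514 in the negative libraries and 1174 and 934 in the positive ones. Vmhc, the marker that overlapped, gave 156 to 488 of the negative sums and 1028 and 370 of the positive ones. The chamber marker myl7 had 6.96, 48.8 and 14.9 against 59.7 and 182, and the natriuretic peptide gene nppa 9.29, 1.63 and 10.4 against 39.2 and 147, and neither was called.

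**Figure D2:**
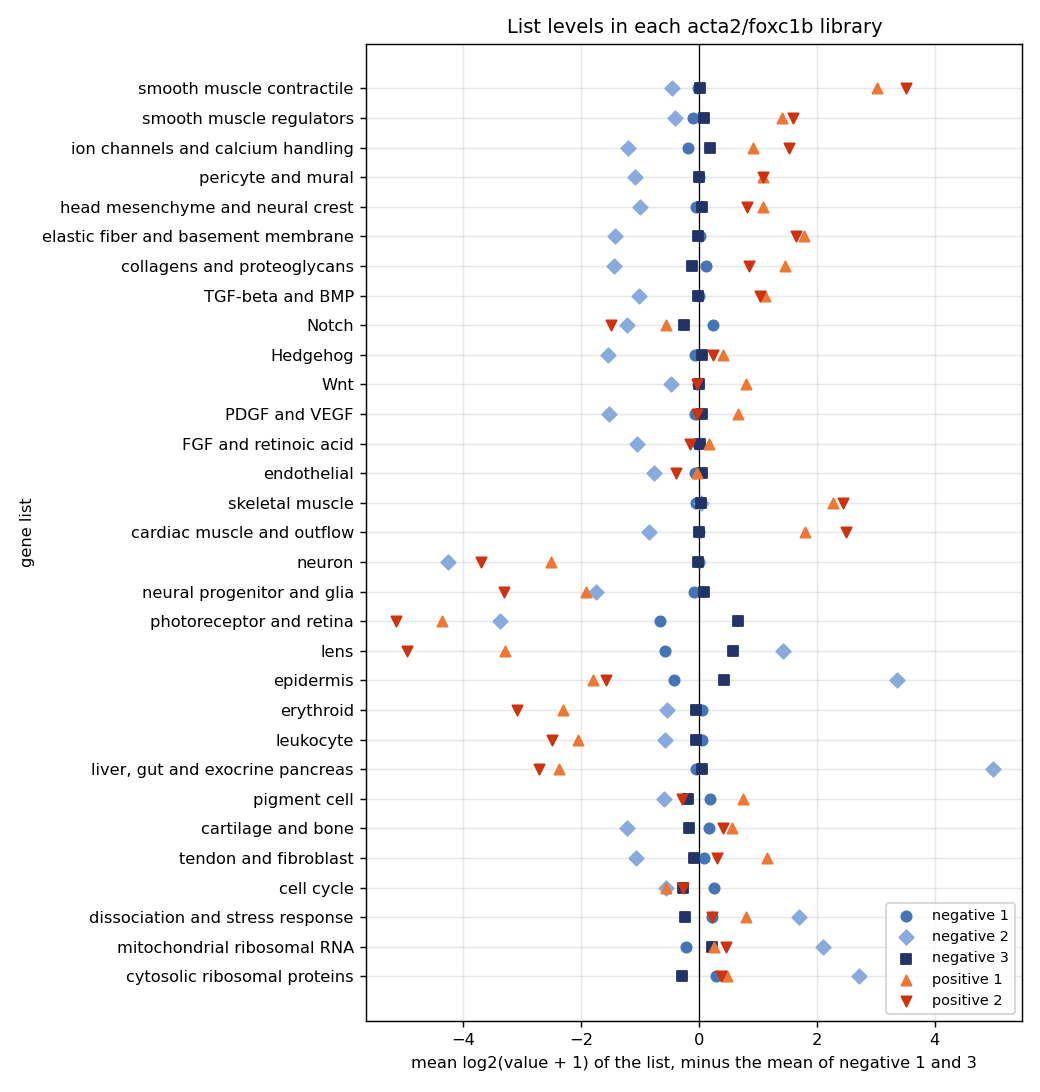
Mean log2(value + 1) of each gene list in each of the 5 libraries, relative to the mean of negative 1 and negative 3, with blue points for negative and orange and red points for positive libraries. Both positive libraries lie right of all negative ones for the smooth, skeletal and cardiac muscle lists, whereas negative 2 lies far right of all others for the epidermis and for the liver, gut and exocrine pancreas lists.

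The positive-against-negative difference was then set against that of the acta2 line, which has its own negative libraries, in a single limma fit. With all 11 libraries 0 of 23438 genes had a called difference between the lines (1169 at an unadjusted p under 0.05), and edgeR also called 0. Without negative 2, 49 genes were more positive in the acta2/foxc1b line (0.209%) and 5 more negative (0.0213%). Of the 49, 24 were among the 84 skeletal muscle genes, whose median log2 fold change was -0.35 in the acta2 line. Actc1b, a striated muscle actin gene, had a mean of 670 in negatives 1 and 3 and 36950 in the positive libraries here, against 3247 and 3668 in the acta2 line, a difference in log2 fold change of 5.55 ± 0.58 (adjusted p = 0.0112). Ckmb gave 5.29 ± 0.63 (adjusted p = 0.0118), with an acta2-line log2 fold change of -0.36. The count fell to 4 without negative 1, to 0 without negative 3 or without positive 2, and rose to 299 without positive 1. Leaving out acta2-line libraries gave 28, 9 and 22 without its negatives 1, 2 and 3, and 40, 14 and 17 without its positives 1, 2 and 3.

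Among smooth muscle genes fewer differences between the lines were called. In the acta2 line the contractile list had a median of 2.07, and 2 of its 45 members had a called difference, tpm2 (3.09) and desma (4.53). Desma also stands in the skeletal muscle list, and whether either difference is particular to smooth muscle was not tested. For acta2 the difference was 1.96 ± 0.51 (adjusted p = 0.259). Foxc1b had a log2 fold change of -1.46 in the acta2 line, where its mean was 3421 in the negative and 1266 in the positive libraries. In the acta2/foxc1b line the means were 299, with negative 2 included, and 1361. The means of the positive libraries lay close together and those of the negative ones far apart. The difference in fold change, fitted by limma without negative 2, was 3.80 ± 0.84 (adjusted p = 0.154). Foxf1 and foxf2a had acta2-line log2 fold changes of 0.93 and 0.66. Neither had a called difference between the lines without negative 2, nor did any other of the 34 smooth muscle regulators.

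**Figure D3:**
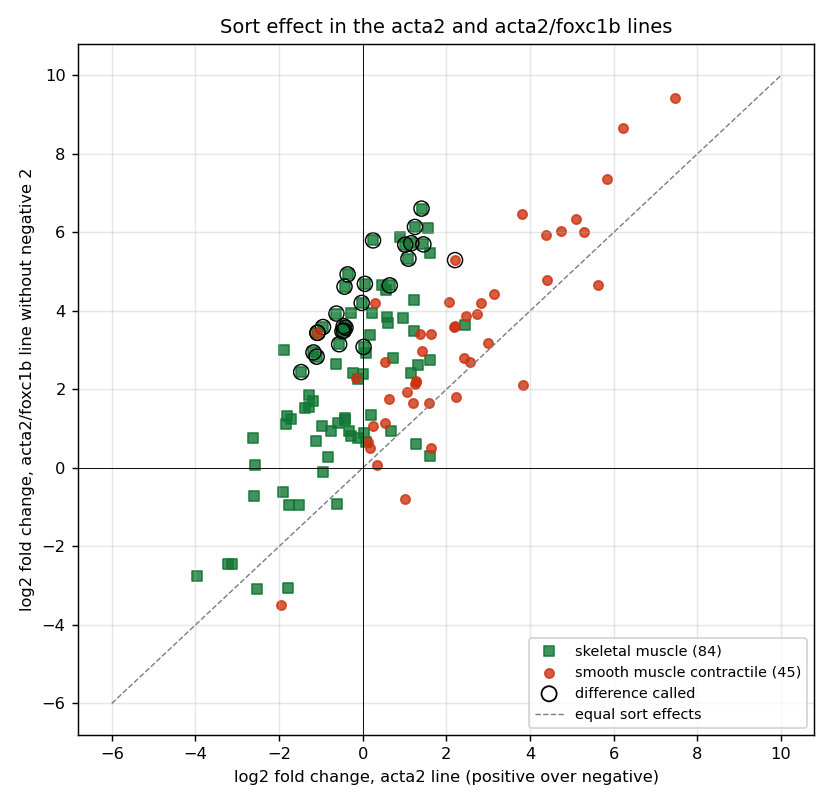
Log2 fold change of positive over negative cells in the acta2 line (horizontal) and in the acta2/foxc1b line without negative 2 (vertical), with 1 point per gene for 84 skeletal muscle genes (green squares) and 45 smooth muscle contractile genes (red circles), and black rings for genes with a called difference. The 24 ringed skeletal muscle genes sit above the dashed line of equal effects, most near 0 on the horizontal axis.

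Genes of the retina and the lens were lower in the positive cells. Photoreceptor and retina genes gave 23 called lower and 0 higher of 55 tested, with 32 lower and 0 higher without overlap and a median of -3.66, or -5.11 without negative 2. The cone opsin gene opn1sw1 had 511, 379 and 1537 in the negative libraries and 30.29 and 8.89 in the positive ones (-5.66 ± 0.83, adjusted p = 0.0233). Negative 2 was the lowest negative library and still exceeded both positive ones by far. Of 43 lens genes 16 were called lower and 0 higher, or 7 by edgeR without negative 2, and 37 were lower and 2 higher without overlap, and the median was -5.15, or -4.49 without negative 2. The gamma-crystallin gene crygm2d1 had 461, 2337 and 2048 against 8.91 and 5.56 (-6.92 ± 0.85, adjusted p = 0.0177).

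Neuronal genes were lower in the positive cells than in negatives 1 and 3, but not than in negative 2. The mean log2(value + 1) over the neuron list was 9.08, 4.82 and 9.07 in negative libraries 1 to 3 and 6.57 and 5.38 in the positive ones, so that negative 2 lay below both positive libraries. It did so too for elavl3, an RNA-binding protein gene of neurons, with 33111, 194 and 11852 against 2765 and 487. Of 59 neuron genes 19 were called lower and 0 higher, yet 7 were lower and 2 higher without overlap in the 5 libraries. The share lower was near the 14.8% of all genes in that direction, and the share higher was below the 14.8% in the other. The median moved from -1.99 to -3.65 when negative 2 was left out. Gad1b, the enzyme of GABA synthesis, had 374, 0 and 684 in the negative libraries and 20.5 and 20.01 in the positive ones. The synaptic vesicle gene sv2a had 1951, 52.0 and 2202 against 56.1 and 50.02. In the 5 libraries their log2 fold changes were -1.58 (adjusted p = 0.883) and -3.50 (adjusted p = 0.480), and without negative 2 they were -4.58 and -5.26. Of 38 neural progenitor and glia genes, 8 were called lower and 0 higher, 16 were lower and 3 higher without overlap, and the median was -2.45, or -3.10 without negative 2. Sox3, a neural progenitor factor, had 2236, 1088 and 2321 in the negative libraries against 211 and 84.5 (-4.08 ± 0.54, adjusted p = 0.0192).

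Blood cell genes were lower in the positive cells on balance, with exceptions among the erythroid ones. Erythroid genes gave 11 lower and 2 higher of 30, or 9 and 1 by edgeR without negative 2, with 17 and 4 without overlap and a median of -2.74, or -2.96 without negative 2. The transcription factor gata1a had 179, 197 and 188 in the negative libraries and 0.891 and 0 in the positive ones, where 1 read was counted in all (adjusted p = 0.0188). The anion exchanger slc4a1a had 2407, 1769 and 1992 against 80.2 and 14.5 (-5.95 ± 0.80, adjusted p = 0.0195). The negative libraries were close to each other in both genes. The members called higher were tmod4, a tropomodulin that also caps actin in striated muscle, and rhag, an ammonium transporter gene. Leukocyte genes gave 9 lower and 0 higher of 50, or 4 by edgeR without negative 2, with 28 lower and 0 higher without overlap and a median of -2.09, or -2.13 without negative 2. Ncf1, a subunit of the phagocyte oxidase, had 525, 324 and 206 against 3.56 and 1.11 (-6.73 ± 0.91, adjusted p = 0.0195).

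Digestive enzymes of the exocrine pancreas were among the genes with the most negative fold changes. In the list of liver, gut and exocrine pancreas, 22 of 65 genes were called lower and 0 higher, 33 were lower and 0 higher without overlap, and the median was -2.81, or -1.06 without negative 2. The chymotrypsin-like gene ctrl had 1085, 52209 and 2670 in the negative libraries and 1.78 and 2.22 in the positive ones (-9.15 ± 0.73, adjusted p = 0.0072). Ela2l, an elastase gene, had 2387, 122448 and 3105 against 8.02 and 5.56 (-8.47 ± 0.55, adjusted p = 0.0072). Negative 2 was many times higher than negatives 1 and 3 here, and the positive libraries were below all 3. The hepatocyte gene fabp10a differed in negative 2 alone, at 43881 against 316 and 35.6 in the other negatives and 78.4 and 162 in the positives. Epidermal genes gave 12 lower and 2 higher of 67, or 10 and 1 by edgeR without negative 2. In the 5 libraries 40 were lower and 3 higher without overlap, and the median of -3.16 became -1.52 without negative 2. Of the 4 defining epidermal markers, epcam alone was lower without overlap. The keratin gene krt91 had 1396, 168294 and 2098 in the negative libraries and 2587 and 7159 in the positive ones, which thus lay above negatives 1 and 3, while krt4, at 1866 and 5444 in the positive libraries, and krt5 overlapped those negatives. Trpv6, the calcium channel of skin ionocytes, had 363, 301 and 970 against 10.7 and 2.22 (-6.60 ± 0.92, adjusted p = 0.0214). The higher members, krt94 and zgc:77517, had log2 fold changes of 2.76 and 2.34. Trypsin, elastase, gamma-crystallin and hemoglobin genes have near-identical copies between which reads can be split, so single members of these families are uncertain.

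**Figure D4:**
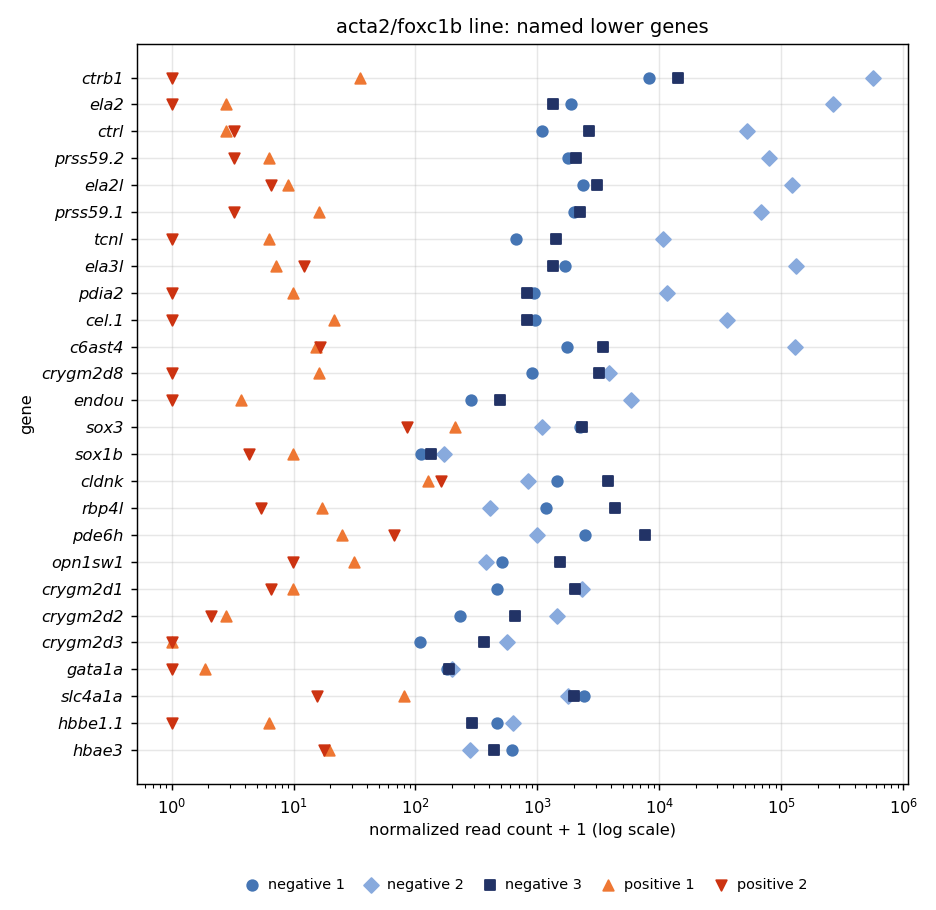
Normalized read count plus 1 on a log axis for 26 named lower genes, with 1 point for each negative (blue) and positive (orange and red) library. The pancreatic enzymes at the top are highest in negative 2, as with ctrl at 52209. In all genes shown the positive libraries lie left of the 3 negative ones, because only genes without overlap between the groups were drawn.

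The smooth and skeletal muscle lists had the largest shares of members called higher and 1 or 0 lower, and the retina, lens, erythroid, pancreatic and neuron lists the largest shares called lower. These shares are from the fit without negative 2, which lay below both positive libraries in the neuron list. EdgeR without negative 2 called 23 smooth and 31 skeletal muscle genes higher. It called 16 retina, 7 lens, 9 erythroid, 15 pancreatic and 13 neuron list genes lower. Of the 59 neuron genes, 7 were lower without overlap in the 5 libraries, a share near that of all genes. Endothelial genes, which mark the cells that mural cells surround, gave 0 higher and 1 lower of 55, near the 2.13% of all genes called lower, and edgeR without negative 2 called 0. The median was 0.40, or 0.12 without negative 2. The 1 call was the lymphatic and neural factor prox1a, which also stands in the lens list, and none of the 5 defining endothelial markers was separated between the groups. Kdrl, a receptor of vascular endothelial growth factor, had 282, 140 and 800 in the negative libraries and 556 and 1477 in the positive ones.

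**Figure D5:**
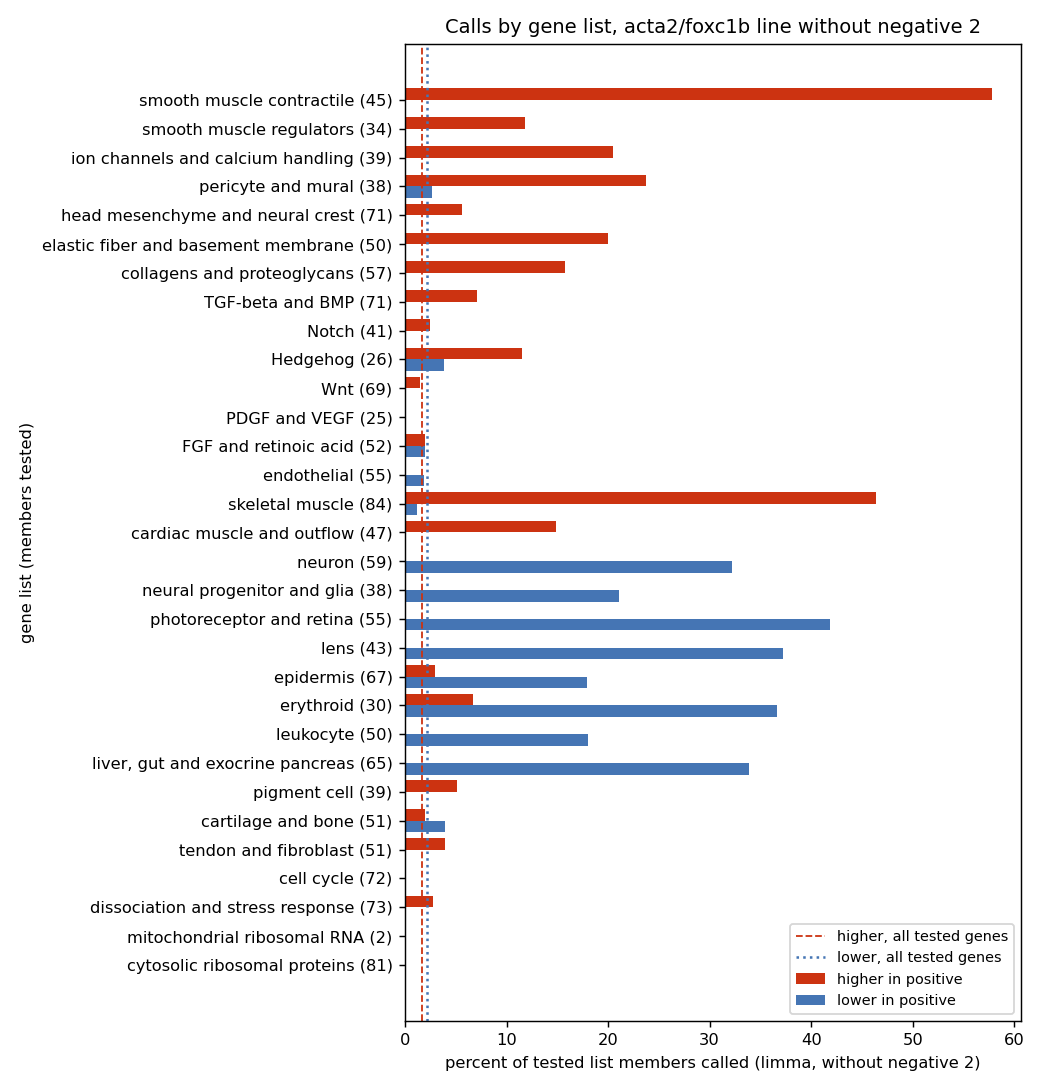
Percent of the tested members of each gene list that limma called higher (red) or lower (blue) in positive cells without negative 2, with the number of tested members in brackets and vertical lines at the shares of all tested genes, 1.63% higher and 2.13% lower. The smooth muscle contractile list has 26 of 45 members called higher and the photoreceptor and retina list 23 of 55 called lower.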

How the data were processed

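RNA was extracted with TRIzol from cells sorted by fluorescence, and cDNA primed with oligo dT was amplified by REPLI-g before TruSeq adapters were added, per the labels' protocols. The submitters' processing notes name bcl2fastq 2.14, CASAVA 1.8.2, featureCounts 1.5.2, DESeq2 1.20.0 and the build GRCz11. Aligner and annotation: not given in the sources used here. The deposited table holds a signal value for each gene in each library, that is, read counts scaled by the authors with size factors. All values (100%) were whole multiples of the value of 1 read within 0.1 read, so whole reads were recovered for the count tests. For each sort the authors deposited log2 fold changes, which differ from the product of their error and test score as shrunken values do, with raw and adjusted p-values; the score was used for nothing else. The reads are not independent molecules, since amplified cDNA without molecular identifiers was counted, and no interval based on them is given.

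Samples were grouped by their titles. Nothing says that libraries of a group came from separate clutches, so the p-values measure only the spread between these libraries. Because the values are normalized, limma-trend (limma 3.58.1 in R 4.3.3, robust settings off, two-sided) was run on log2(value + 1), which understates the change of low genes, with Benjamini-Hochberg adjustment over all 22116 genes and a call at an adjusted p under 0.05. EdgeR 4.0.16 and DESeq2 1.42.0 on the recovered reads were alternatives. The differences between lines came from an interaction term over 11 libraries. Scripts were tested on simulated data. Each of 31 gene lists is described by counts and medians alone. The members and lists were chosen with earlier results of these data known. Genes were named by a rule: the reporters, all calls in the 5 libraries, the 16 highest and 14 lowest fold changes among genes whose symbol is not a clone or locus name, with a mean of at least 100, no overlap between groups and the same direction without negative 2, up to 4 per list by moderated t, 8 highest and 8 lowest in negative 2, and up to 6 per direction for the difference between lines; further list members were named after their values were seen, and some genes that the rule gives are not reported here. Gene coordinates were not used here, since the reference at hand is of another build.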

Additional observations from a re-analysis of the deposited data

Results flagged for a closer look

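The response to the sort differed between the acta2/foxc1b line and the acta2 line, by the interaction term of limma without negative 2, in genes with an adjusted p under 0.05. With negative 2 included, 0 genes passed. Values are differences in log2 fold change, acta2/foxc1b line minus acta2 line. More positive here were sarcomere and muscle metabolism genes: myl10 (6.16), actc1b (5.55), ckmb (5.29), pvalb4 (5.20), mybpc3 (5.03), klhl43 (5.00), myl13 (4.95), tmod4 (4.88), tnnt2e (4.70), acta1a (4.67), actn3a (4.24) and casq2 (3.75). In the acta2 line their own log2 fold changes ranged from -0.55 for tmod4 to 1.95 for mybpc3.

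More negative here were endou (-9.82), the lipase gene cel.2 (-8.43), the synaptic vesicle gene syngr3a (-4.72), the calmodulin-binding factor gene camta1b (-3.94) and the neuronal secreted gene olfm1a (-3.39). Endou had 3 reads in all in the positive libraries of the acta2/foxc1b line, and its mean in the acta2 line was 3.03 in the negative and 32.2 in the positive libraries. Camta1b stood at 1942, 22.8 and 2627 in the negative libraries and 148 and 60.0 in the positive ones, so that negative 2 lay below both positive libraries. The log2 fold change of olfm1a within the acta2/foxc1b line had no stable sign. It lay between -2.10, without negative 2, and 0.37 over 18 settings and was called in 0 of them.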

How the results depend on the processing

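In 5 libraries the counts of 6 higher and 0 lower held with edgeR's TMM scaling, a pseudocount of 0.5, a filter of 50 and robust moderation. Quantile normalization gave 54 higher and 40 lower, so that 57.45% of calls were higher against 100% in the reported fit. A pseudocount of 10 and the lack of a filter each gave 11 higher, edgeR 0, DESeq2 643 and 1049, sample weights 498 and 753, and a fit over all 11 libraries 571 and 400. Leaving out single libraries gave 0 to 360 higher and 0 to 471 lower. Whether the replicate numbers pair the samples could not be decided from r of 0.144 and 0.0559 between deviations of same-numbered libraries. With 2 positive libraries the deviations mirror each other, so r changes only its sign when the positive library is exchanged. The fit with the replicate block called 97 higher and 183 lower. Its fold changes rest on same-numbered libraries only, since the negative library without a positive counterpart adds nothing to them. Chosen after seeing the data, edgeR without negative 2 gave 243 and 282 and DESeq2 without it 1306 and 1572. Quantile normalization without negative 2 gave 544 and 740, and a pseudocount of 10 gave 840 lower; leaving out a further library gave 0 to 3170 higher and 0 to 4642 lower. The acta2 log2 fold change was 8.98 with edgeR (adjusted p = 0.139), and 8.90 to 9.14 without a positive library (adjusted p = 0.968 and 0.268); over all settings it was 8.64 to 9.42. Foxc1b passed in 1 of 18 settings, sample weights, at 2.31 (adjusted p = 0.0365). Differences between the lines went from 0 to 54 without negative 2, and to 0 to 299 with a further library left out.

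Of 137 named genes 3 reversed, none of them called. Mt-rnr1 went from -0.39 to 0.49 with sample weights, and lay between -0.97 and 0.55 (without negative 2) when a library was left out. Mt-rnr2 went from -0.28 to 0.33 with quantile normalization, 0.16 with sample weights, 0.18 without negative 2 and 0.29 without positive 1, with -0.86 as the lowest value, without positive 2. Olfm1a went from -0.54 to 0.37 with the replicate block and 0.12 to 0.37 without negative 1 or 3, with -2.10 without negative 2. The cause was not tested. The median over all genes lay between -0.17 and 0.05 on the log2 scale in these settings.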

Other observations

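The remaining lists gave few calls in either direction. Over all tested genes 1.63% were called higher and 2.13% lower, and the cartilage and stress lists lay near these shares. The 39 pigment cell genes gave 2 higher and 0 lower, or 1 and 0 by edgeR without negative 2: fhl2a, a LIM-domain protein gene, at 109, 146 and 67.3 against 6678 and 4477 (5.98 ± 0.47, adjusted p = 0.0072), and gch2, of pteridine synthesis, at 207, 78.1 and 284 against 998 and 1771. Of the 4 defining pigment markers, gch2 alone was higher without overlap. Dct was lower without overlap, at 89.8, 210 and 99.0 against 33.9 and 4.45. In both positive libraries pmela and tyrp1b lay below negatives 1 and 3. The list median was 0.19, or 0.27 without negative 2, and it became -0.11 without positive 1. Of 51 cartilage and bone genes, 1 was called higher, the factor sox6, and 2 lower, col9a1b and matn3a, whereas edgeR without negative 2 called 0 in either direction, and the median was 1.31, or 0.96 without negative 2. In the 5 libraries 26 of the 51 were higher and 4 lower without overlap, against 14.8% of all genes in each direction. Of 51 tendon and fibroblast genes, thbs2a and pcolcea were called higher, and edgeR without negative 2 called 0. The median was 1.17, or 0.93 without negative 2, and the list took 4.66% of the reads of positive 1 and 1.13% of those of positive 2.

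None of 72 cell cycle genes was called by limma, and edgeR without negative 2 also called 0; the median was -0.25, or -0.50 without negative 2. Ccnd2a, a cyclin of the early cycle, had 2268, 1934 and 2373 in the negative libraries and 6993 and 8273 in the positive ones (1.71 ± 0.39, adjusted p = 0.0659). Of 73 genes of the dissociation and stress response, the small heat shock protein genes hspb11 (3.47) and hspb8 (2.86) were called higher, or 1 gene by edgeR without negative 2, while the median was -0.05 in the 5 libraries and 0.56 without negative 2. The 81 ribosomal protein genes gave 0 calls, with medians of -0.49 and 0.45, and the 2 mitochondrial ribosomal RNA genes 0, with -0.34 and 0.36. The median of these lists thus changed sign with negative 2, in which the ribosomal protein genes took 13.3% of reads against 4.65% to 6.64% in the other libraries. The mitochondrial ribosomal RNA genes took 4.66% of the reads of negative 2, within the 3.54% to 7.18% of the other libraries. They took 4.87% and 7.18% in negatives 1 and 3 and 3.54% and 6.07% in the positive libraries, yet their median without negative 2 was 0.36. Ribosomal protein genes took 6.64% and 4.65% against 6.05% and 4.92%, with a median of 0.45. The part of the scaling in these medians was not tested.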
